A study of Mus musculus with 7 samples.

Results

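The 7 libraries were made from single mouse embryos at the morula stage, and they are described here as 2 sets selected on the level of Bmp15, the gene of a growth factor that oocytes secrete. Bmp15 stood under 1 CPM (the counts of a gene over all counts of its library, times 1000000) in 2 embryos, replicates 4 and 5, and over 100 CPM in the other 5, replicates 1, 2, 3, 6 and 7. Its counts were 2165, 8036, 2133, 2, 0, 39 and 36187 in replicates 1 to 7, which equal 1893, 488, 2939, 0.0604, 0, 279 and 2113 CPM. The values nearest the thresholds were 0.0604 CPM in replicate 4 (2 counts, 95% exact Poisson interval 0.00731 to 0.218 CPM) and 279 CPM in replicate 6 (39 counts, 199 to 382 CPM), and no embryo lay between. All 7 embryos carried the C57BL/6 background, had received no treatment and were collected on day 3 post coitum from L13a+/- mice crossed with each other. L13a is the gene Rpl13a, of the large ribosomal subunit. The labels form 1 group of all 7 and name neither genotype nor sex nor litter nor batch, so any embryo may carry 0, 1 or 2 mutant copies, and nothing says that the embryos came from separate litters.

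Because Bmp15 from these same libraries chose the sets, the comparison is a description: it has no test and no p-value, and each set is given by the values of its embryos. A gene was counted as lower where both embryos with Bmp15 under 1 CPM lay below all 5 others, and as higher where both lay above all 5. Of 26586 genes in the table, 7715 had a mean of 10 CPM or more with Bmp15 left out. Among them 239 were lower (3.10%) and 510 were higher (6.61%). A gene high in 1 set can pass a filter on the mean through that set alone, so these counts support nothing about the genes counted.

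An oocyte stores messenger RNAs that serve the egg and the first cleavages. After fertilisation most of this maternal RNA is stripped of its poly(A) tail and degraded, first by factors the egg itself carries, such as BTG4 and the CCR4-NOT deadenylase, and then with the help of factors made by the embryo. The genome of the mouse embryo is switched on around the 2-cell stage, and transcripts for ribosomes, respiration and proteolysis build up as the morula compacts and its outer cells begin to form trophectoderm. All embryos here come from a single day, so loss over time was not measured, and the sets are named only by their Bmp15 level.

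Depth limits what a value of 0 means. The totals of replicates 1 to 7 were 1143861, 16452890, 725729, 33123742, 2764409, 139619 and 17122136 counts, a 237-fold range, so the 2 sets differ in depth as well: the low pair holds the deepest library and 1 of middle depth, and the other 5 hold the 3 shallowest. The limit that a count of 0 allows, taken as 3 counts, was 2.62, 0.182, 4.13, 0.0906, 1.09, 21.5 and 0.175 CPM. The cDNA was made from poly(A) RNA without molecular identifiers, so intervals and limits cover counting error only. Replicates 1 to 7 had 5121, 9383, 3486, 12064, 3388, 1749 and 8953 genes with a count, and 3968, 6939, 2858, 8533, 2334, 1749 and 6669 once each was thinned to 139619 counts. To be lower, a gene must be counted in all 5 embryos over 100 CPM. That held for 774 genes, of which 239 (30.9%) were lower, and 37 of these rested on at most 3 counts in at least 1 of the 5. To be higher, it must be counted in both embryos under 1 CPM, which held for 2826 genes, and 510 (18.0%) were higher. Of the 436 genes counted in all 7 embryos, 71 (16.3%) were lower and 31 (7.11%) higher.

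The genes with the widest separation are shown by the sequence around their starts. For the 3 widest in each direction that have an entry in RefSeq's table for GRCm38.p6, 220 bases are printed, from 200 before the start that this table gives, 5′ to 3′ on the strand of the gene. Capitals mark matches to 7 motifs searched on both strands: TAATTA (homeobox), TAATTG (the NOBOX site), CACGTG (E-box), TATAAA (the core promoter box), CCGGAAG (ETS), AAGATGGC (YY1) and CTTTCC (as in terminal pyrimidine tracts), of which the first 2 can share bases. The windows are chr7:46975892-46976111 on the minus strand for C86187, chr4:144162632-144162851 on the minus strand for Oog3 and chr7:15750170-15750389 on the plus strand for Obox5, which are lower. They are chr11:116012700-116012919 on the minus strand for Galk1, chr10:80249249-80249468 on the plus strand for Ndufs7 and chr7:3703841-3704060 on the plus strand for Rps9, which are higher. For Ndufs7 and Rps9 that start lies within the gene's outer bounds, which open at 80249105 and 3703954, so the windows may miss other starts.
C86187: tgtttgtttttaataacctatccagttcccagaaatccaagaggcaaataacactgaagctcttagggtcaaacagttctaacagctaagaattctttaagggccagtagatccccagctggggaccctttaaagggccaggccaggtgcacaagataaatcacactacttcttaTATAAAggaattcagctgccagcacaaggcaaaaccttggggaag
Oog3: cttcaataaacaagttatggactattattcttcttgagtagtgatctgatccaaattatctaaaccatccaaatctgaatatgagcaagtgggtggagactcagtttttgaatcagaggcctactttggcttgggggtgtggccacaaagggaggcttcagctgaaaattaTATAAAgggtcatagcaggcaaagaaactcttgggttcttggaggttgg
Obox5: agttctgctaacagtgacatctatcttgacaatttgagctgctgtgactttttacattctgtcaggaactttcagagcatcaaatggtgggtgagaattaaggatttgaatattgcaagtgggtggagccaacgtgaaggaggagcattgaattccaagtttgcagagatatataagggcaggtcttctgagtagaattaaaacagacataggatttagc
Galk1: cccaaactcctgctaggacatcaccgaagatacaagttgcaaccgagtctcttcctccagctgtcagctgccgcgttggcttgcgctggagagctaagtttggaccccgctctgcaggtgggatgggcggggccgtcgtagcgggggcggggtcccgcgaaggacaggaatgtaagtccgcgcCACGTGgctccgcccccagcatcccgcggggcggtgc
Ndufs7: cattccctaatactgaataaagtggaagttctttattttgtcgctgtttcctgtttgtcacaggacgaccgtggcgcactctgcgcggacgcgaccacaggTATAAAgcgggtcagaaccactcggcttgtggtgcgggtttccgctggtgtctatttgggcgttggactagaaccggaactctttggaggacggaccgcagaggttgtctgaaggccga
Rps9: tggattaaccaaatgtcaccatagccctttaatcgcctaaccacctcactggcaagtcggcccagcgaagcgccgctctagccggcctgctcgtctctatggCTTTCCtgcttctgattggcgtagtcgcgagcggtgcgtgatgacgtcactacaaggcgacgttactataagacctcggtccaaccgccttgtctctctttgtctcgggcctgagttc

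C86187 and Oog3 each held the string TATAAA, 25 and 29 bases before the start, while the window of Obox5 held none of the 7 exact strings. Near matches were not marked, such as tatataag in Obox5, so that window may still hold a core promoter box. On the higher side, Ndufs7 held the string TATAAA 99 bases before the start and Rps9 held CTTTCC 98 bases before it. Galk1 held an E-box 17 bases before the start and 65.9% G and C, against 43.6, 41.4 and 40.0% in C86187, Oog3 and Obox5. These windows are examples and do not stand for their groups: the median G and C content from 250 bases before to 50 after the start was 63.3% for 184 lower genes with an entry, 60.0% for 364 higher genes and 61.3% for 5584 genes compared. The core promoter box was in 7.07% of lower, 8.52% of higher and 6.91% of all compared genes with an entry. The NOBOX site was in 9.78, 3.02 and 4.82%, and in 8.15% of all 27025 promoters of the table. The ETS motif was in 12.5, 25.8 and 20.3%, and in 39.7% of 58 ribosomal protein promoters. The E-box was in 6.52, 14.3 and 11.1%, the YY1 motif in 2.17, 8.24 and 5.28%, the pyrimidine motif in 23.4, 31.3 and 26.6%, and the homeobox motif in 3.26, 1.92 and 2.40%. In all promoters of the table the shares of the core promoter box, ETS, E-box, YY1, pyrimidine and homeobox motifs were 14.2, 9.12, 7.24, 2.88, 26.3 and 5.31%. A match is a string of letters and was not shown to be bound. CTTTCC was matched at any position and on either strand, so a match does not show a tract at the start of a transcript.

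Of the 15 genes that separated the sets most widely on the lower side, C86187, Oog3, Obox5, Btg4 and Omt2a belong to the lists of oocyte and maternal genes, and Bcl2l10 to that of apoptosis. Values below are in CPM, first for replicates 4 and 5 and then for replicates 1, 2, 3, 6 and 7. C86187, a long noncoding RNA on chr7:46967710-46975911, was at 1.36 and 0.723 against 3406, 1509, 2253, 3424 and 3568 (counts 3896, 24831, 1635, 45, 2, 478 and 61099 in replicates 1 to 7). Its lowest value among the 5, in replicate 2, was 1111-fold the value of replicate 4. Oog3 (oogenesin 3, of a leucine-rich family found in oocytes; chr4:144157556-144162651) was not counted in either of the pair and stood at 3472, 1123, 3432, 817 and 1749 in the others. The lowest of these was at least 752-fold higher than the pair, taking 3 counts per library in place of 0. A bulk value per embryo cannot tell fewer cells that hold a transcript from less of it per cell, here and in all that follows.

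Obox5, an oocyte homeobox gene, was at 0 and 0 against 1505, 644, 4365, 602 and 2099. E2f5, a repressor of the E2F family on chr3:14578602-14606309, was at 0.272 and 0 against 4696, 726, 1196, 458 and 1848. Trim61, of the tripartite motif family, was at 0 and 0 against 450.2, 551, 1753, 924 and 691. The separation, from the lowest of the 5 to the higher of the pair with 3 counts per library in place of fewer, was at least 554-fold, 422-fold and 415-fold for these 3 genes. Btg4 itself, the adaptor that brings the deadenylase to maternal RNA (chr9:51102147-51119924), was at 0 and 0 against 949, 211, 1519.9, 723 and 2545. Dusp7, a phosphatase of MAP kinases, was at 2.08 and 1.09 against 2619, 1102, 387, 1834 and 2374, and Bcl2l10, a Bcl2 relative abundant in oocytes, at 3.41 and 0 against 5328, 604, 635, 2242 and 2284. In each of these genes the low pair was scarce or not counted while replicate 6, the shallowest library, still had 64 counts or more.

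The other 7 of the 15 genes of widest separation were Tcl1b2, Pla2g4c (a phospholipase), the predicted gene Gm13023, Chsy1 (a chondroitin synthase), E330034G19Rik, Gstm5 (a glutathione transferase) and Omt2a, an oocyte maturation transcript. Omt2a was at 0 and 3.98 against 2437, 3125, 1310.4, 509 and 3198, a separation of 128-fold, the smallest of the 15. Gm13023, C86187, the Oog, Obox, Omt2 and Tcl1b genes and many ribosomal protein genes have near copies in the genome. How the authors' counting treated reads that fit several copies is not given, so the split between such copies is uncertain.

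**Figure D1:**
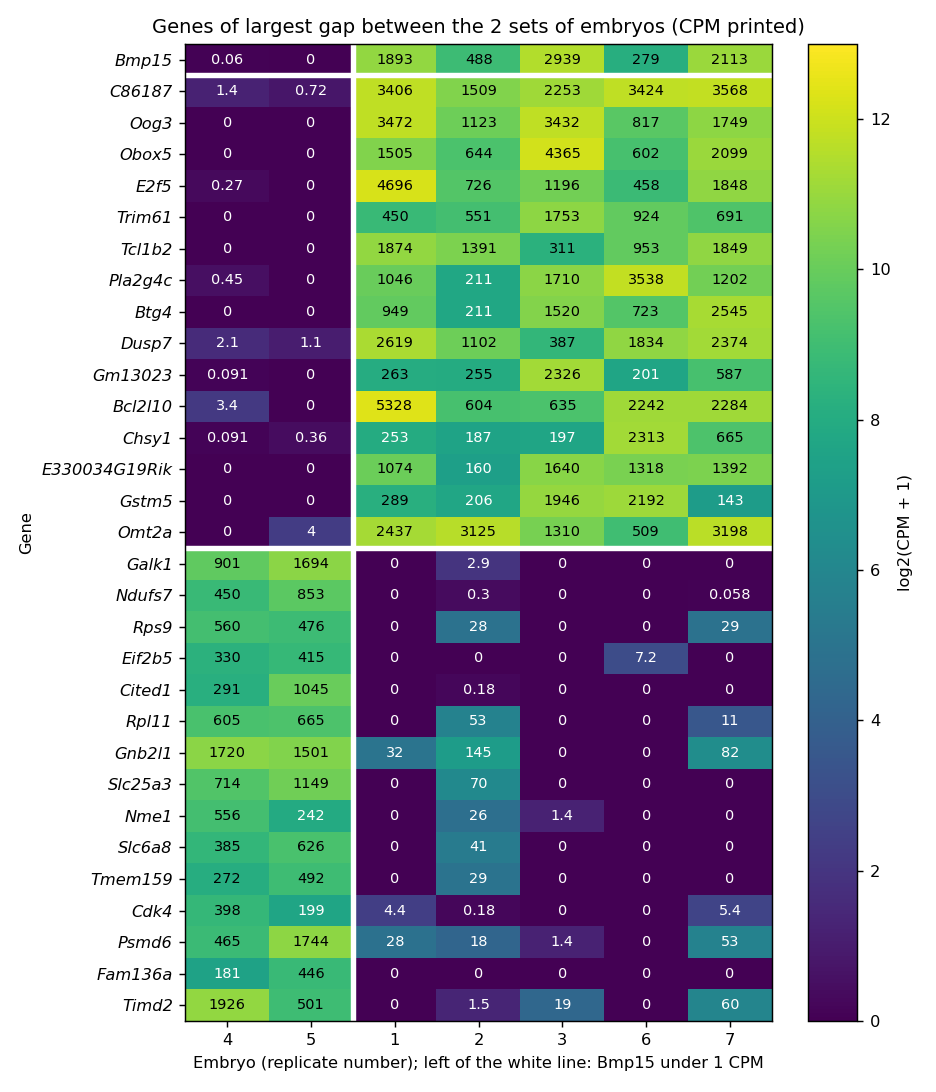
Values of Bmp15, which chose the embryos, and of the 15 genes with the widest separation in each direction; rows are genes, columns are embryos (replicates 4 and 5 left of the white line), the printed numbers are CPM and the colour is log2(CPM + 1). Oog3, Obox5 and Btg4 are at 0 in replicates 4 and 5 and over 200 CPM in the other 5, while Galk1 is at 901 and 1694 CPM in the pair and at most 2.86 CPM elsewhere.

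The 239 lower genes made up 18.1, 8.36, 17.9, 22.6 and 18.8% of the counts of the 5 embryos with Bmp15 over 100 CPM, and 0.518 and 0.473% in replicates 4 and 5. These shares restate how the genes were chosen. Replicate 2 lay nearest to the pair for 76 of the 239, replicate 3 for 59, replicate 6 for 57, replicate 1 for 29 and replicate 7 for 18. Within the pair, 47 were not counted in replicate 4, 161 were not counted in replicate 5 and 40 in neither. Their longest annotated transcripts had a median of 4097 bases, against 3314 for all compared genes and 2626 for the 510 higher genes (lengths in GENCODE M21 for 92.5, 90.6 and 91.4% of them). What part transcript length has in the separation was not tested.

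Only 1 stretch of the genome held 3 or more lower genes with no more than 500000 bases between neighbours. It was the Tcl1 cluster, chr12:105147019-105222737, with 5 of them: Tcl1, which encodes a coactivator of AKT, and its relatives Tcl1b1, Tcl1b2, Tcl1b3 and Tcl1b4. Tcl1b2 was at 0 and 0 against 1874, 1391, 311, 953 and 1849 and Tcl1b4 at 0 and 0 against 1408, 708, 1571, 64.5 and 1517. Tcl1b1 was at 0 and 209 against 2611, 1861, 3122, 1655 and 3673, so replicate 5 still held it, and Tcl1 was at 6.88 and 205 against 5742, 2208, 305, 5135 and 3689. Of the higher genes, 94 lay in 28 such runs. More of them could be placed, 458 against 217 lower genes, and runs among all compared genes were not counted.

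Oocyte lists differed in the share of members that separated. Over 10 lists of oocyte and maternal genes, 113 members passed the filter. Of them 22 (19.5%) were lower and 4 (3.54%) higher, where 3.10% and 6.61% of all compared genes were. Only 34 of the 113 were counted in all 5 embryos over 100 CPM, and 35 in both of the pair. Zeros kept the other members from counting as lower. The Oog, Omt2, Zar1 and Rfpl4 transcripts had the highest share, with 8 of 18 lower and none higher: Oog2, Oog3, Omt2a, Omt2b, Rfpl4, C86187, D6Ertd527e and AU022751. These 8 were also the only members counted in all 5 embryos over 100 CPM. Summed over the list, the pair held 725 and 597 CPM and the others 14108, 12419.6, 12244, 7843 and 18972. Zar1, needed for the step from oocyte to embryo, was at 0.483 and 0.362 against 399, 81.1, 0, 0 and 149 and counts as overlapping because replicates 3 and 6 had none. Oog1, at 0 and 0 against 349.7, 66.2, 267, 0 and 229, overlapped through replicate 6 alone.

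Genes of the zona pellucida, the coat of the egg, and of secreted oocyte factors had 2 of 7 members lower (28.6%, against 3.10% of all compared genes). These 2 were the only members counted in all 5 embryos over 100 CPM. Oosp1, an oocyte-secreted protein, was at 0.483 and 0 against 2250.3, 1439, 1731, 7.16 and 2269.6, and its value in replicate 6 is 1 count. Gdf9, the partner of BMP15, was at 6.19 and 11.9 against 55.1, 207, 41.3, 100.3 and 515, and so it was counted in all 7 embryos. The zona genes overlapped: Zp1 was at 1.18 and 0 against 141, 103, 1.38, 0 and 256, Zp2 at 0 and 0 against 0, 121, 492, 0 and 26.1 and Zp3 at 3.56 and 0 against 19.2, 138, 0, 0 and 166. The sum of the list was 11.5 and 11.9 CPM in the pair and 2482, 2109.6, 2326, 107 and 3761 CPM in the others.

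The subcortical maternal complex, which sits under the egg membrane and is needed for cleavage, had 2 of 7 members lower (28.6%, against 3.10% of all compared genes). Only these 2 were counted in all 5 embryos over 100 CPM. Zbed3 was at 6.10 and 89.0 against 10247, 3374, 7277, 2342 and 21207, and Nlrp4f at 6.82 and 0 against 193, 40.8, 1295, 673 and 49.4. A member went the other way in 1 embryo: 2410004A20Rik (Khdc3, also called Filia) was at 2476 and 0 against 0, 78.6, 0, 0 and 5.96. Nlrp5, which the complex depends on, was at 0 and 16.3 against 15.7, 74.9, 0, 0 and 71.7. None of 7 other oocyte Nlrp genes and none of 5 Fbxw genes was lower, and none of these 12 was counted in all 5 embryos over 100 CPM. Nlrp14, for one, was at 12 and 0 against 397, 189.8, 2622, 0 and 320.3, and all 7 Nlrp genes were at 0 in replicate 5.

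Of 8 oocyte transcription factors, Obox5 and Ybx2 were lower and 6 overlapped. Ybx2, which binds and stabilises stored messenger RNA, was at 12.3 and 0 against 97.9, 64.9, 44.1, 630.3 and 239. Sebox, a maternal homeobox factor, was at 0 and 0 against 606, 1047, 2.76, 0 and 938 and Nobox, a regulator of oocyte genes, at 0 and 0 against 10.5, 0, 5.51, 0 and 121. Both were at 0 in the pair and also in replicate 6, where 0 allows 21.5 CPM.

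Of 14 maternal chromatin factors, 1 was lower and 1 higher (7.14% each, where 3.10% and 6.61% of all compared genes were). Of the 14, 4 were counted in all 5 embryos over 100 CPM and 5 in both of the pair. Npm2 (nucleoplasmin 2), which reshapes sperm chromatin, was at 0 and 0 against 185, 90.0, 416, 107 and 269. Dnmt1, the maintenance DNA methyltransferase, was higher, at 36.4 and 510.4 against 22.7, 10.0, 5.51, 0 and 3.74, and its sets came within 2-fold of each other. Dppa3 (Stella), which guards maternal methylation, was at 4059 and 84.3 against 1719, 2905, 1539, 3416 and 2904, so replicate 4 had the highest value of all 7 embryos and replicate 5 the lowest. The low values of the pair thus did not extend to Dppa3 or Khdc3 in replicate 4. Omt2b was lower but not scarce in replicate 5, at 1.57 and 577 against 1781, 4971, 3103, 2607 and 6719. A bulk value cannot tell stored transcripts from those made by the embryo, so clearance itself was not tested.

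Genes that store and clear maternal RNA separated in both directions, and zeros kept most of them from counting as lower. Of 18 clearance genes, Btg4, Cnot6l and Pan3 were lower (16.7%) and Cnot10 and Ythdf2 higher (11.1%). Of all compared genes, 3.10% were lower and 6.61% higher. Of the 18, 4 were counted in all 5 embryos over 100 CPM and 7 in both of the pair. Cnot6l, a catalytic deadenylase subunit, was at 7.88 and 0 against 1103, 303, 1016, 1275 and 1158, and Pan3, of the PAN2-PAN3 deadenylase, at 19.6 and 9.04 against 751, 494, 298, 1539.9 and 346. Cnot10, another CCR4-NOT subunit, was at 86.4 and 486 against 0, 33.7, 0, 0 and 15, and Ythdf2, a reader of methylated RNA that promotes its decay, at 158 and 1135 against 56.0, 18.8, 0, 0 and 141. The other 13 overlapped, among them the scaffold Cnot1, at 117 and 131 against 419.6, 301, 346, 0 and 69.1. Of 11 storage genes, 1 was lower and 1 higher (9.09% each), and 5 were counted in the embryos that each call needs. Eif4e1b, the oocyte form of the cap-binding protein, was lower at 0.725 and 0 against 114, 12.1, 22.0, 71.6 and 88.8. Igf2bp2, an RNA-binding protein, was higher at 88.5 and 80.3 against 1.75, 0.182, 13.8, 14.3 and 57.5. For Ythdf2 and Igf2bp2 the sets came within 2-fold of each other, taking 3 counts per library in place of fewer.

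Among 18 genes of meiosis and egg arrest, Wee2, Pttg1 and Gpr3 were lower (16.7%) and none was higher. Of all compared genes, 3.10% were lower and 6.61% higher. Of the 18, 7 were counted in all 5 embryos over 100 CPM and 9 in both of the pair. Wee2, the oocyte kinase that holds CDK1 inactive, was at 0 and 0 against 78.7, 411, 943, 1132 and 423. Pttg1 (securin) separated by little, with 229 and 227 against 1909, 719.9, 243, 2027 and 1016. Gpr3, the receptor that keeps oocytes in prophase, was at 0.815 and 0 against 22.7, 38.6, 209, 7.16 and 170.2, where replicate 6 had 1 count. Ccnb1, the mitotic cyclin B1, was at 381 and 3342 against 3.50, 772, 101, 602 and 307 and overlapped.

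For genes of the embryo's own lineages, the pair lay at both ends of the range of summed values. The lists of lineage, junction and 2-cell genes summed to 18869 CPM in replicate 4, the highest of the 7 embryos, and to 2204 CPM in replicate 5, the lowest, against 6923, 6656, 8407, 9555 and 8477 CPM in the others. Of 77 such genes, 4 were lower (5.19%) and 7 higher (9.09%), where 3.10% and 6.61% of all compared genes were, and 5 and 23 of the 77 were counted in the embryos that each call needs. Cdx2, the trophectoderm factor, was at 105 and 0 against 0, 0, 0, 0 and 0, and Nanog, of the epiblast, at 78.4 and 0 against 0, 0, 0, 0 and 0. Pou5f1 (Oct4) was at 513 and 0 against 0, 51.1, 0, 0 and 295, Krt8 at 1294 and 0 against 0, 89.2, 0, 0 and 0 and Gata6 at 381 and 7.60 against 0, 0, 0, 0 and 34.5. Replicate 5 thus shared the low oocyte values of replicate 4 without a count of Cdx2, Nanog, Pou5f1, Sox2, Krt8 or Krt18, where 0 allows 1.09 CPM. Measured against the labelled stage, Cdx2, Eomes and Nanog had no count in 6 of the 7 libraries.

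**Figure D2:**
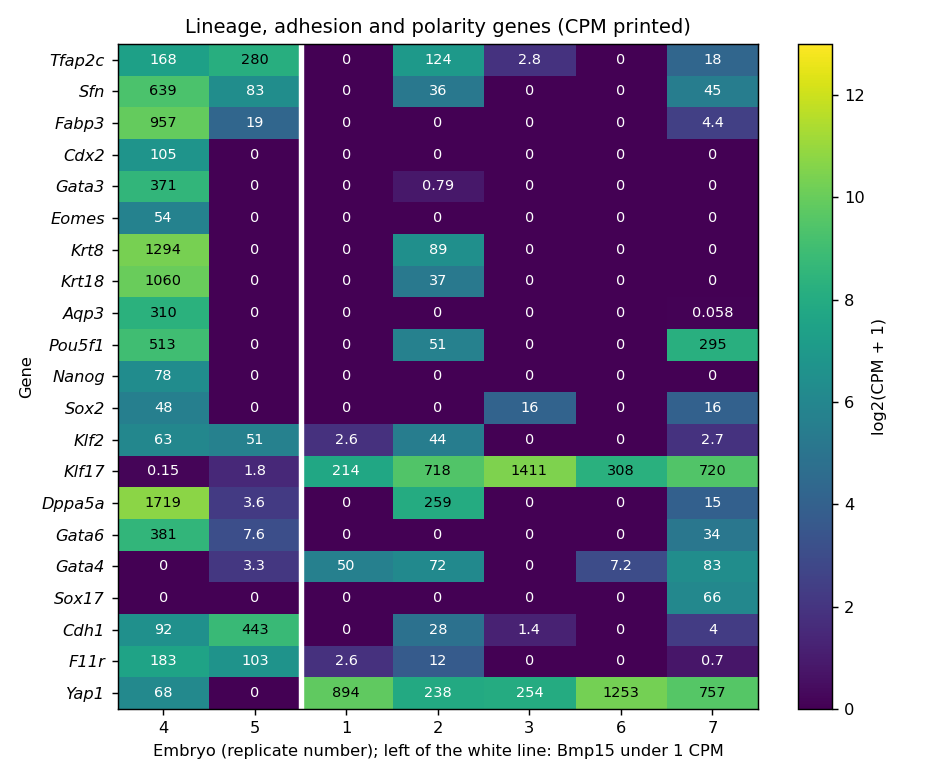
Values of lineage, adhesion and polarity genes by embryo; rows are genes, columns are embryos (replicates 4 and 5 left of the white line), printed numbers are CPM and the colour is log2(CPM + 1). Krt8, Cdx2 and Nanog are highest in replicate 4 and at 0 in replicate 5, and Tfap2c, Cdh1 and F11r are highest in the pair.

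Of the 77 genes above, 4 of the 5 that could count as lower and 7 of the 23 that could count as higher did so. Among all compared genes that could, these shares were 30.9% and 18.0%. Zeros hold down the shares over all 77, which therefore say little. Tfap2c, a transcription factor of the early embryo and trophectoderm, was higher, at 168 and 280.0 against 0, 124, 2.76, 0 and 18.5. Cdh1 (E-cadherin), the adhesion molecule of compaction, was at 92.5 and 443 against 0, 28.3, 1.38, 0 and 3.97, and F11r, a tight junction adhesion molecule, at 183 and 103 against 2.62, 12.3, 0, 0 and 0.701. Lats2, a Hippo pathway kinase, was at 31.2 and 58.6 against 11.4, 0, 0, 0 and 0, Klf2 at 63.3 and 50.6 against 2.62, 44.1, 0, 0 and 2.74, Fabp3 (a fatty acid binding protein) at 957 and 18.8 against 0, 0, 0, 0 and 4.44 and Sfn (14-3-3 sigma) at 639 and 82.8 against 0, 36.2, 0, 0 and 44.6. On the lower side were Klf17, at 0.151 and 1.81 against 214, 718, 1411, 308 and 720.3, Spry4, an inhibitor of FGF signalling, at 0.0302 and 7.23 against 828, 531, 843, 100.3 and 1917, Yap1, the effector that LATS kinases restrain, at 68.1 and 0 against 894, 238, 254, 1253 and 757, and Rdx (radixin), at 55.0 and 0 against 83.1, 161, 68.9, 57.3 and 419. For Rdx, Sfn, Klf2, Tfap2c and Lats2 the sets came within 2-fold of each other, taking 3 counts per library in place of fewer, and Fabp3 in replicate 5 lay below the 21.5 CPM that 0 allows in replicate 6, so its separation is not shown. Of 8 genes of the 2-cell stage, none was counted in all 5 and 1, Obox6, was counted in both of the pair, so the zeros kept all but Obox6 from separating. Zfp352, one of the 8, was at 15.4 and 0 against 351, 67.8, 375, 0 and 453.

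Of the 15 genes of widest separation on the higher side, Ndufs7, Rps9, Rpl11 and Psmd6 belong to the lists of growth genes. Galk1, a galactokinase on chr11:116008357-116012719, was at 901 and 1694 against 0, 2.86, 0, 0 and 0 (counts 0, 47, 0, 29836, 4683, 0 and 0 in replicates 1 to 7), and replicate 4 was at least 41.9-fold higher than any of the 5, taking 3 counts per library in place of fewer. The 21.5 CPM that 3 counts make in replicate 6 caps every separation on this side. Ndufs7, of respiratory complex I, was at 449.9 and 853 against 0, 0.304, 0, 0 and 0.0584, and Rps9, of the small ribosomal subunit, at 560.1 and 476 against 0, 28.4, 0, 0 and 29.1. Eif2b5, the catalytic subunit of the exchange factor for eIF2, was at 330.2 and 415 against 0, 0, 0, 7.16 and 0. Cited1, a transcriptional coregulator on chrX:102247378-102252181, was at 291 and 1045 against 0, 0.182, 0, 0 and 0.

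Slc25a3, the mitochondrial phosphate carrier, was at 714 and 1149 against 0, 69.9, 0, 0 and 0, and Slc6a8, the creatine transporter, at 385 and 626 against 0, 41.3, 0, 0 and 0. Gnb2l1 (Rack1), a scaffold on the small ribosomal subunit, was at 1719.9 and 1501 against 31.5, 145, 0, 0 and 82.3. Cdk4, a kinase of the G1 phase, was at 398 and 199 against 4.37, 0.182, 0, 0 and 5.37, and Timd2, a receptor for ferritin, at 1926 and 501 against 0, 1.52, 19.3, 0 and 60.1. The rest of the 15 were Rpl11, Nme1 (a nucleoside diphosphate kinase), Tmem159, the proteasome gene Psmd6 and Fam136a, the last at 181 and 446 in the pair and at 0 in all 5 others. In all, 48 of the 510 higher genes had no count in any of the 5, and 494 had at most 3 counts in at least 1 of them.

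Cytosolic ribosomal protein genes had the highest share of separated members. Of 80, 55 (68.8%) were higher, 33 of 47 of the large and 22 of 33 of the small subunit, and none was lower. Of all compared genes, 6.61% were higher and 3.10% lower, and of those counted in both of the pair 18.0% were higher. Only 11 of the 47 and 10 of the 33 were counted in all 5 embryos over 100 CPM, so most could not count as lower. The pair devoted 7.04 and 7.34% of its counts to them, and the others 0.998, 2.03, 0.825, 1.56 and 0.727%. All 80 were counted in both of the pair, against 67, 80, 40, 34 and 79 in replicates 1, 2, 3, 6 and 7. Rpl10 was at 1217 and 1913 against 3.50, 163, 0, 0 and 153, Rps18, of the decoding head, at 1411 and 3331 against 0, 330.0, 0, 0 and 0.467, and Rpl34 at 809 and 2695 against 0, 138, 0, 115 and 73.2. Replicate 2 was the closest of the 5 in the median of either subunit list, at 144 and 176 CPM, where the pair had 656 and 511 CPM for the large and 782 and 734 CPM for the small subunit.

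Among those that overlapped, Rpsa was at 1799 and 3133 against 470.3, 668, 885, 1891 and 311, through replicate 6. Rpl13a, the gene of the cross, did not follow the split, with 17558 and 9 counts in replicates 4 and 5 (530.1 and 3.26 CPM) and 86.5, 119, 5.51, 7.16 and 23.5 CPM in the others.

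**Figure D3:**
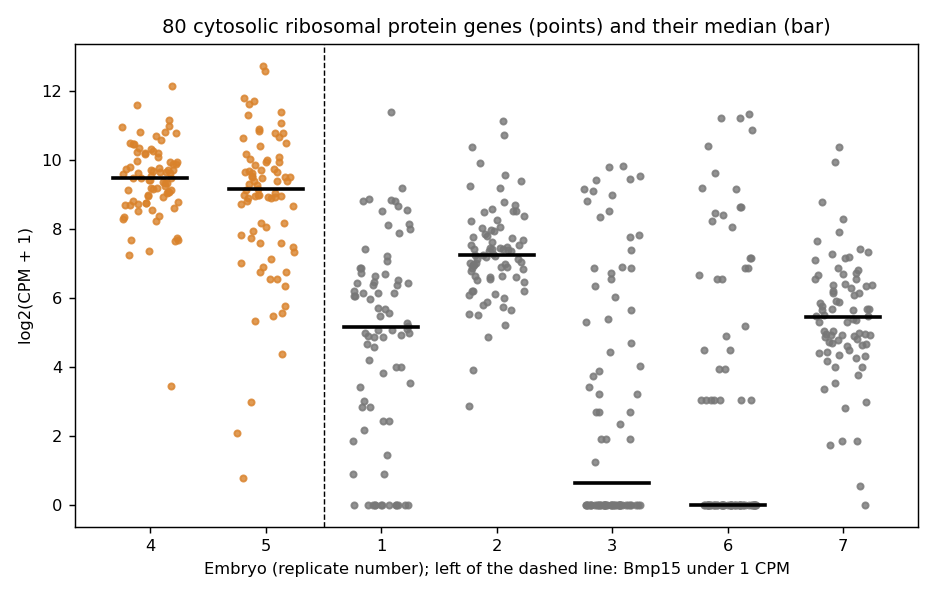
Levels of 80 cytosolic ribosomal protein genes in each embryo, as log2(CPM + 1); each point is a gene, the bar is the median of the genes, and replicates 4 and 5 stand left of the dashed line. Most genes of replicates 4 and 5 lie above those of the other 5, replicate 2 is nearest, and in replicates 3 and 6 many genes have no count.

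Other lists of growth had smaller shares on the same side. Over all 14 lists of growth and housekeeping genes, the ribosomal proteins included, 458 members were compared, and 137 were higher (29.9%, against 6.61% of all compared genes) and none lower (against 3.10%). Of the 458, 315 were counted in both of the pair and 44 in all 5 others. Respiratory complexes II to V had 17 of 34 higher, with Atp5c1, of ATP synthase, at 861 and 1250.2 against 0, 132, 1.38, 0 and 109 and Cyc1, of complex III, at 848 and 172 against 0, 94.9, 0, 0 and 76.9. Complex I had 8 of 36, among them Ndufa3 at 164 and 137 against 0, 13.2, 0, 0 and 1.64. Mitochondrial ribosomal proteins had 10 of 72, led by Mrpl20 at 323 and 3199.6 against 0, 39.3, 0, 0 and 0.759, and 31 of the 72 were counted in both of the pair. Cox8a, of complex IV, overlapped, at 602 and 1867 against 2151, 1823, 442, 1862 and 1284.

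In protein synthesis, 9 of 36 translation factors were higher, with Eif3k at 601 and 983 against 0, 105, 0, 0 and 5.08 and Eif5a at 5791 and 3382 against 1259.8, 1541, 23.4, 2041 and 2724. Aminoacyl-tRNA synthetases had 5 of 18 higher, such as Eprs at 206 and 210.2 against 0, 86.7, 4.13, 50.1 and 8.35, and ribosome biogenesis 7 of 33, such as the box C/D protein Nop58 at 355 and 351 against 31.5, 98.3, 0, 0 and 7.48. The initiation factor Eif1 was even across embryos, at 1030.4 and 1022 against 1204, 847, 1089.9, 902 and 1404. Nucleolin (Ncl) was highest outside the pair, at 1204 and 55.7 against 28.0, 334, 2949, 0 and 57.1.

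For protein turnover, 8 of 32 proteasome genes were higher, with Psmd6 at 465 and 1744 against 28.0, 17.8, 1.38, 0 and 53.3 and Psmd4, a ubiquitin receptor, at 864 and 1654 against 0, 240.0, 0, 0 and 218. Chaperones had 5 of 23, with the mitochondrial Hspa9 at 397 and 734 against 185, 104, 27.6, 50.1 and 129. The cytosolic Hsp90aa1 was at 8323 and 56.8 against 57.7, 252, 809, 0 and 127, high in replicate 4 alone. The share of all compared genes that were higher was 6.61%, as above. Splicing genes had 6 of 33 higher, actin and tubulin genes 3 of 19 and DNA replication genes 4 of 29. None of 13 glycolysis genes separated, but none was counted in all 5 embryos over 100 CPM and only 2 were counted in both of the pair. Their lack of separation thus says little. Aldoa, an aldolase, was at 985 and 0.362 against 27.1, 38.9, 20.7, 0 and 16.1, and the list summed to 2163 CPM in replicate 4 and 1.45 CPM in replicate 5.

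Of 25 compared stress genes, 1 was lower and 2 higher (4% and 8%, near the 3.10 and 6.61% of all compared genes), and 3 were counted in all 5 embryos over 100 CPM. Of 17 genes of p53 signalling and apoptosis, Bcl2l10 was lower and Ccng1, a p53 target, higher at 88.8 and 54.3 against 0, 0, 0, 14.3 and 6.77. Of 9 genes of the integrated stress and unfolded protein responses, Hspa5 (BiP), the chaperone of the endoplasmic reticulum, was higher at 1026 and 589 against 55.1, 468, 1.38, 0 and 65.5. Ddit3 (CHOP) was at 13.7 and 0 against 0, 37.6, 0, 2800.5 and 0, with nearly all of it in replicate 6.

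**Figure D4:**
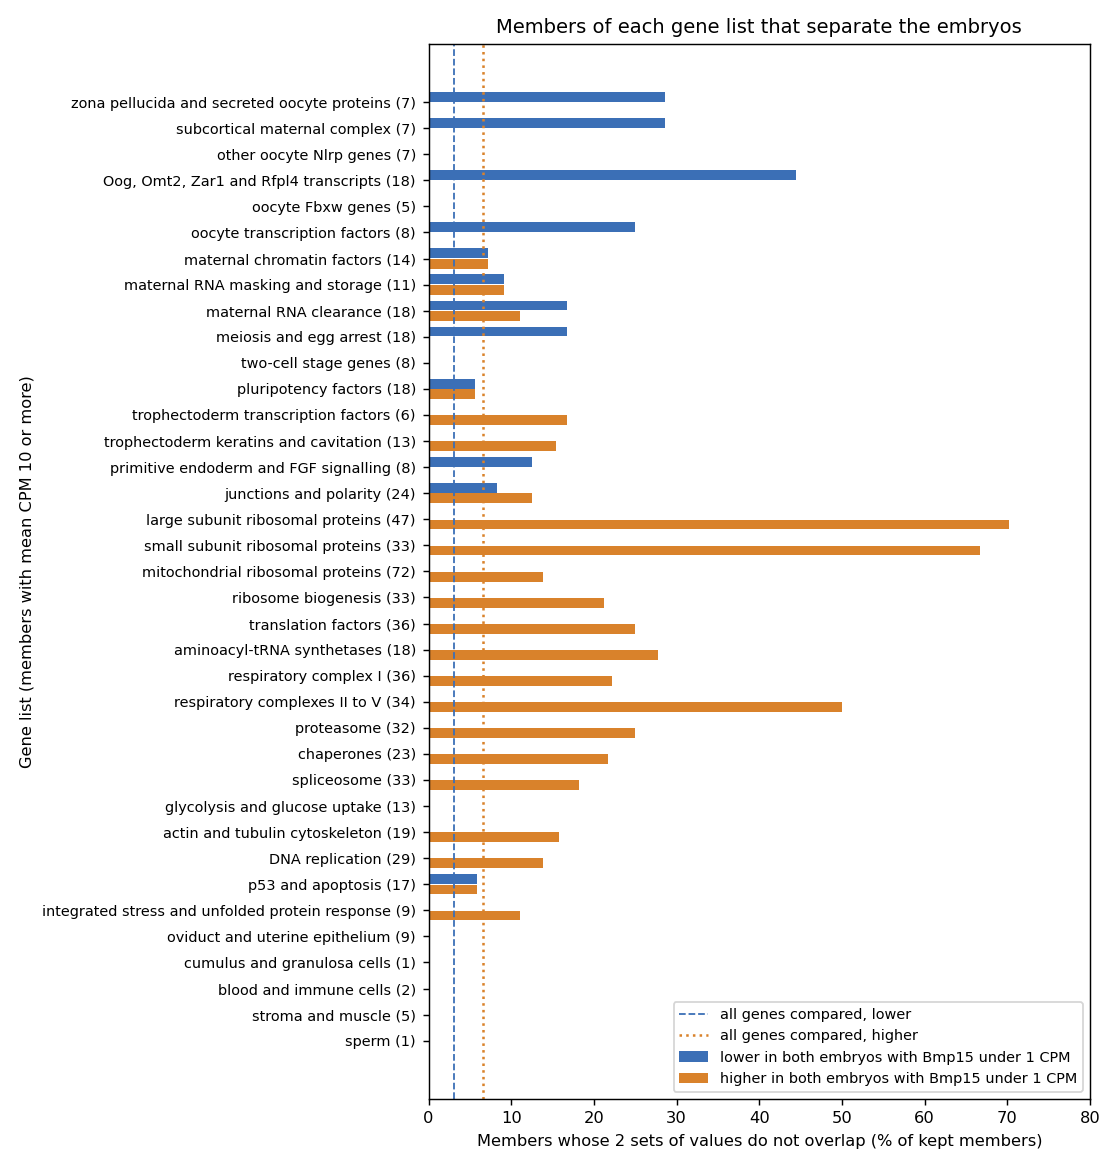
Share of the compared members of each gene list (number in parentheses) that were lower or higher in both embryos with Bmp15 under 1 CPM; bars are percentages, and the dashed and dotted lines are the shares over all compared genes, 3.10% lower and 6.61% higher. The Oog, Omt2, Zar1 and Rfpl4 list has the longest bar on the lower side and the 2 ribosomal lists have the longest on the higher side.

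Replicates 4 and 5 differed from each other in many genes. Of the 510 higher genes, 200 lay within 2-fold of each other in replicates 4 and 5 and 418 within 10-fold, 32 were over 10-fold higher in replicate 4 and 60 in replicate 5. The 4 examples that follow lie in 1 of the pair below the 21.5 CPM that 0 allows in replicate 6, so at a floor of 3 counts they do not separate, and at that floor 431 of the 510 remained. Mtch2, a protein of the outer mitochondrial membrane, was at 643 and 2.17 against 0, 0, 0, 0 and 0.0584, and Cyp2s1, a cytochrome P450, at 305 and 1.45 against 0, 0, 0, 0 and 0. In the other direction, the transcription factor Sall1 was at 3.83 and 892 against 0, 0, 0, 0 and 0, and Frat2, a regulator of GSK3, at 9.60 and 1735 against 0, 0, 0, 0 and 8.18. Among lower genes, replicate 4 kept Uchl1, a deubiquitinase, at 103 CPM and Psme4, a proteasome activator, at 86.4 CPM where replicate 5 had none. Over all compared genes, 4792 of 7715 were not counted in replicate 5 and 867 were not counted in replicate 4.

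Across the 7715 genes, Spearman's rho was 0.38 between replicates 4 and 5, from 0.15 to 0.38 among the 5 others and from -0.02 to 0.25 between an embryo of each set. After thinning to equal totals the value for replicates 4 and 5 was 0.32. Replicate 2 stood at 0.25 with either of the pair, and for 270 of the 510 higher genes it was the nearest of the 5. These values are descriptions across genes that share libraries, depth and many zeros, and they include the genes by which the sets were described.

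**Figure D5:**
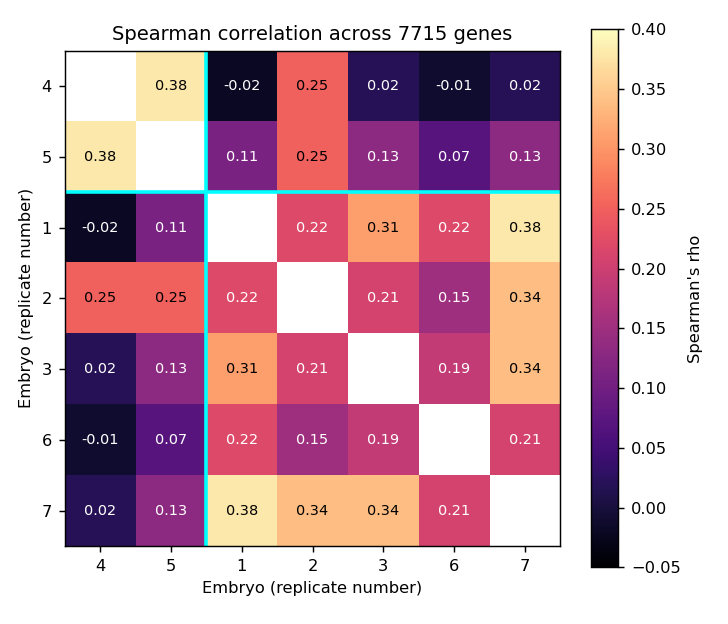
Spearman's rho between libraries across the 7715 compared genes, with embryos ordered by set and the cyan lines between the sets; the colour and the printed number are rho. Replicates 4 and 5 stand at 0.38 with each other, and replicate 2 stands at 0.25 with each of them.

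Markers of other cells were unevenly spread. Their sum was higher in each embryo with Bmp15 over 100 CPM, but several list sums rested mostly on 1 member. All 5 lists together came to 172 and 4.70 CPM in the pair and to 1841, 2654, 1268, 11503 and 663 CPM in the others. Oviduct and uterine epithelium markers summed to 59.9 and 1.81 CPM in the pair and to 1215, 2043, 0, 6324 and 413 CPM in the others, with Ovgp1, the oviduct glycoprotein, at 0 and 0 against 627, 112, 0, 0 and 3.91. Pax8 and Foxj1 were at 0 in 6 embryos and at most 0.122 CPM in replicate 2. Stroma and muscle markers summed to 0.242 and 0.362 against 258, 132, 565, 4734 and 8.29 CPM. Of these, Dcn held 4240.1 CPM in replicate 6, and Myh11 was the only member counted in replicate 3. Blood and immune markers summed to 3.35 and 0 against 4.37, 81.6, 0, 444 and 25.5 CPM. Cumulus and granulosa markers summed to 53.3 and 2.53 against 0, 301, 459, 0 and 0.292 CPM, and those of replicates 2 and 3 were mostly Amhr2, while Amh, Fshr, Foxl2, Has2 and Ptx3 had no count in any embryo. Sperm markers summed to 55.1 and 0 against 364, 96.9, 244, 0 and 216 CPM, mostly Odf2, and Tnp1 and Tnp2 had no count. None of the 18 compared members of these 5 lists was counted in all 5 embryos over 100 CPM and 1, Amhr2, was counted in both of the pair, so none could count as lower and their lack of separation says nothing. Without replicates 1, 2 and 6, the 3 libraries over 1000 CPM of oviduct markers, 1159 genes were lower and 1043 higher, and these included all 239 and 510, as they must when embryos are left out. The share of ribosomal RNA was 3.65 and 20.4% in the pair and 11.3, 13.2, 3.38, 8.67 and 4.18% in the others. The part of other cells, of depth and of ribosomal RNA in the separation was not tested.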

How the data were processed

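Messenger RNA was measured in 7 single embryos, with RNA amounts evened out before SMART-Seq v4 cDNA synthesis and Nextera XT libraries, per the labels' protocols. The submitters' processing notes name HISAT2 2.0.5, featureCounts 1.5.0-p2 of Subread, limma and the build GRCm38. The sources used here do not give strand setting, annotation or step order. Counts as deposited are the authors' unnormalized read counts for 26586 gene symbols. The deposited log2 table of the authors, used only as an alternative, holds normalized log2 values. All columns of both were used.

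CPM were counts over the library total, scaled to 1000000. Embryos were divided by Bmp15 CPM (under 1 or over 100). Since a readout chose the sets, no test was run, and genes of mean CPM 10 or more were counted where the sets did not overlap. With 2 and 5 embryos of 1 labelled group, no mean of a set is given. The counting was tested on simulated data first. The gene lists (37, with 853 entries, 843 of them in the table and 9 of those under an older symbol), the embryos and the rules were chosen with earlier results of these data known. Genes were named by the widest separation (15 per direction), up to 4 per list, the most abundant member of each list, 5 per direction of difference between replicates 4 and 5, and markers; a few members that overlapped, and Tcl1, Tcl1b4, Oog1 and similar examples, were chosen after their values were seen. Positions and promoters are RefSeq's for GRCm38.p6, and lengths are from GENCODE M21. Alternatives were other filters, TMM (edgeR 4.0.16) and DESeq2 1.42.0 size factors under R 4.3.3, totals without ribosomal RNA genes, the authors' log2 table, thinning, a floor of 3 counts, a 2-fold gap and leaving out embryos. Python 3.11.15 with pandas 2.3.3, numpy 2.4.6 and scipy 1.17.1 was used.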

Additional observations from a re-analysis of the deposited data

Results flagged for a closer look

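Of the 37 gene lists, summed per embryo, 4 had 1 embryo far from the other 6, and for each of the 4 that embryo was replicate 4 or 5. A gap of this kind was called where its share of the whole range on the log2(CPM + 1) scale passed Dixon's critical value for 7 values, which chance alone gives in about 1 in 20 groups. The subcortical maternal complex summed to 107 CPM in replicate 5, and the next lowest was 2536 CPM, in replicate 4, of which 2476 CPM was 2410004A20Rik; without that gene replicate 4 summed to 60.1 CPM, below replicate 5. Maternal chromatin factors summed to 1068 CPM in replicate 5, with the next lowest at 3070.3 CPM, and without Dppa3 replicate 5 summed to 984 CPM and replicate 6 to 552 CPM, so replicate 5 was not the lowest. DNA replication genes summed to 496 CPM in replicate 5, with the next lowest at 1779 CPM. Chaperones summed to 29721 CPM in replicate 4, with the next highest at 5164 CPM, and Hsp90ab1 and Hsp90aa1 made up 8371 and 8323 CPM of it.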

How the results depend on the processing

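In every alternative run, no gene passed from lower to higher or the reverse, though the side with more genes turned in 3 of them. The counts of 239 lower, 510 higher and 176 separated list members moved by over 1.5 times as follows. Requiring a mean of 100 CPM left 255 higher genes, and a gap of at least 2-fold left 307 higher genes and 104 list members. With other filters, scalings, the authors' log2 table, thinning or the floor of 3 counts, lower genes ran from 197 to 296 and higher genes from 431 to 716. Leaving out 1 embryo can only add genes and gave 246 to 627 lower genes, 542 to 2021 higher genes and 183 to 425 list members: 497 lower and 930 higher without replicate 4, 2021 higher and 425 list members without replicate 5, 627 lower without replicate 6 and 813 higher without replicate 2. Of 2 alternatives chosen after seeing the data, leaving out replicates 3 and 6, the shallowest, gave 1162 lower genes, and leaving out replicates 1, 2 and 6 gave 1159 lower, 1043 higher and 281 list members. Higher genes were 68.1% of separated genes, 55.8% with a mean of 100 CPM, 46.4% without replicate 6, 34.1% without replicates 3 and 6, 47.4% without replicates 1, 2 and 6 and 88.0% without replicate 5, so which side holds more genes depends on the embryos kept. Against the mean of all 7 on the log2 scale, TMM shifted replicates 4 and 5 by 0.45 and 0.27. It shifted replicates 1, 2, 3, 6 and 7 by -0.05, 0.32, -0.28, -0.75 and 0.05. DESeq2 lowered replicate 4 by 0.35 and raised replicate 5 by 1.11, with shifts of 0.15, -0.14, 0.10, -0.67 and -0.19 in the others. TMM and DESeq2 scaling kept 509 and 478 of the higher and 197 and 217 of the lower genes. The shallow replicates 3 and 6 limit which genes can count as lower. No paired analysis was possible because all 7 embryos form 1 labelled group.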
